A study of Mus musculus with 6 samples.

Results

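The genes described here are markers of stromal cells, of pericytes and of the mural cells that surround blood vessels: Rgs5, Aoc3, Pdgfra, Pdgfrb, Mcam, Cspg4, Cd34, Thy1, Eng and Ly6a. They were chosen by name as a marker list, with earlier results of these data known. Rgs5 and Aoc3 were selected on their large changes with EPC-EVs, so both are described by their values without a test. The markers are 10 of the 21686 genes in the table. Pericytes lie against the endothelium of small vessels, and platelet-derived growth factor from the endothelium holds them there through the receptor encoded by Pdgfrb. Stromal cells around the vessels of bone carry many of the same surface proteins and include precursors of osteoblasts. The proteins fall into receptors (Pdgfra, Pdgfrb and the co-receptor Eng), adhesion and surface proteins (Mcam, Cspg4, Cd34, Thy1 and Ly6a), a regulator of G protein signalling (Rgs5) and a surface amine oxidase (Aoc3).

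RNA was sequenced from MC3T3-E1 Subclone 14 cells, osteoblast precursors of the mouse grown from 1 subclone, so that every group shared the same line. The control cells received 100 µL of PBS, the dexamethasone cells 10 µM of this synthetic glucocorticoid, and the dexamethasone + EPC-EVs cells 10 µM dexamethasone with 100 µg of extracellular vesicles from endothelial progenitor cells of mouse bone marrow, each for 72 h and in 2 libraries. The series description speaks of fibroblasts and another duration, and the sample labels were followed. The comparisons ask how osteoblasts responded to a high dose of glucocorticoid and how their response differed once the vesicles were added.

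Counts on genes summed to 6126888 and 5146760 per library in control, to 6583735 and 6575094 with dexamethasone, and to 12864009 and 13182014 with dexamethasone + EPC-EVs. The replicates are called biological in the study, with nothing on separate cultures, so p-values measure only the spread between 2 libraries of a group. Fewer cells of a type and less RNA per cell cannot be told apart in these bulk samples.

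The osteoblast label was compared with 14 marker genes. The matrix genes Spp1, Col1a1, Col1a2 and Postn were abundant, and Spp1, which encodes osteopontin, had a mean of 8889 CPM (counts scaled to library size with TMM factors over the 6 libraries). Markers of osteoblast differentiation, singled out after their values were seen, differed in level. Dmp1 had 332 to 2367 counts in a library. Bglap (osteocalcin) had 9 and 14 counts in control, 11 and 0 with dexamethasone, and 83 and 8 with dexamethasone + EPC-EVs, and Alpl (alkaline phosphatase) had at most 17 counts in a library. Sp7, Bglap2 and Ibsp of the same list had at most 260, 46 and 26 counts in a library.

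The dexamethasone + EPC-EVs libraries stood apart from the other 4 in content. Mitochondrially encoded genes took 8.04 ± 0.82% of the counts in control (SD, n = 2), 5.66 ± 0.16% with dexamethasone (SD, n = 2) and 0.596 ± 0.185% with dexamethasone + EPC-EVs (SD, n = 2). The noncoding gene Gm26917, singled out after its values were seen, took 0.43 ± 0.25%, 0.96 ± 0.25% and 6.29 ± 0.58% in the same order (SD, n = 2 each). Both shares moved with the vesicle treatment, and the part of RNA quality or library preparation in the results below was not tested. Leaving the mitochondrially encoded genes out, or thinning the counts to the smallest library, left the number of markers called unchanged in each of the 3 comparisons.

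Compared per length, on the FPKM scale, Ly6a had the highest mean level of the 10 genes in control at 59.5 ± 5.3 FPKM (SD, n = 2), followed by Cd34 at 53.4 ± 4.4 FPKM (SD, n = 2), whose libraries overlapped those of Ly6a. Thy1, Pdgfra and Pdgfrb came next at 38.9 ± 7.3, 32.9 ± 4.1 and 32.9 ± 14.9 FPKM (SD, n = 2 each), and these 3 overlapped one another but neither Cd34 above nor Cspg4 below. Cspg4 at 7.82 ± 2.72 FPKM, Rgs5 at 4.58 ± 2.25, Mcam at 1.90 ± 0.83, Eng at 0.83 ± 0.32 and Aoc3 at 0.40 ± 0.44 FPKM closed the order (SD, n = 2 each). Of these lower neighbours, Cspg4 overlapped Rgs5 and Eng overlapped Aoc3. With dexamethasone the order began with Ly6a, Thy1 and Cd34 at 66.7 ± 6.5, 64.4 ± 4.9 and 51.8 ± 0.7 FPKM (SD, n = 2 each), and Ly6a and Thy1 overlapped. With dexamethasone + EPC-EVs, Pdgfrb stood first at 146.9 ± 18.3 FPKM (SD, n = 2), Pdgfra second at 46.3 ± 9.5 FPKM (SD, n = 2), Ly6a well below them at 16.0 ± 5.5 FPKM (SD, n = 2) and Rgs5 last at 0.076 ± 0.011 FPKM (SD, n = 2). Cd34 and Thy1, which followed the receptors there, overlapped, as did Ly6a and Cspg4.

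**Figure D1:**
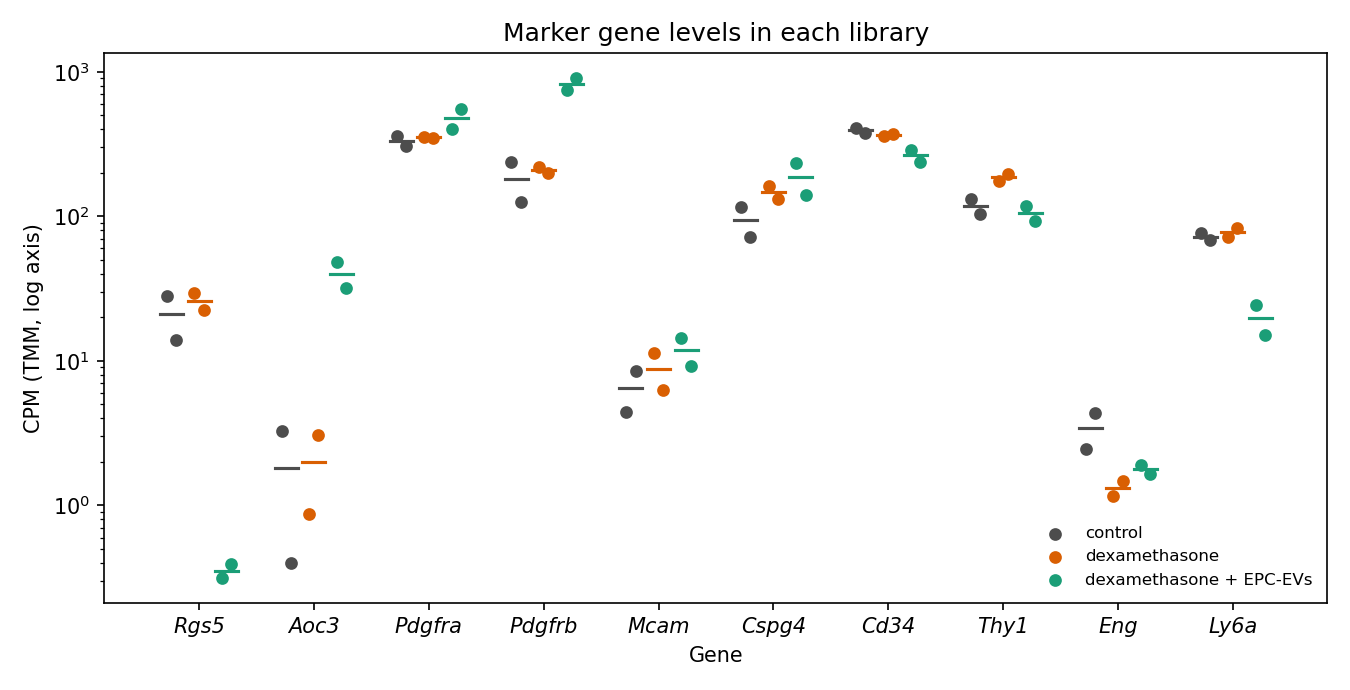
Level of each marker gene in CPM on a log axis, with 1 point per library and a line at the mean of the 2 libraries of a group; control is grey, dexamethasone orange and dexamethasone + EPC-EVs green. Rgs5 sits at 0.317 and 0.392 CPM with dexamethasone + EPC-EVs, below its other 4 libraries, and Pdgfrb at 747 and 906 CPM, above them.

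Pdgfrb encodes the receptor through which pericytes are recruited to vessels, and lies on chromosome 18 from 61045150 to 61085061 (ENSMUSG00000024620.11, GRCm38). It was measured at 237 and 125 CPM in the control libraries, 218 and 198 CPM with dexamethasone, and 747 and 906 CPM with dexamethasone + EPC-EVs. Both vesicle libraries were thus far above the other 4, while control and dexamethasone overlapped, with control replicate 2 the lowest. Pdgfra, the second receptor for platelet-derived growth factors and a marker of mesenchymal stroma, lies on chromosome 5 from 75152292 to 75198215 (ENSMUSG00000029231.15). Its values were 358 and 308 CPM in control, 354 and 348 CPM with dexamethasone, and 404 and 549.6 CPM with dexamethasone + EPC-EVs. The vesicle libraries were the highest, by a small margin in replicate 1. Eng encodes endoglin, a co-receptor for transforming growth factor β ligands, and lies on chromosome 2 from 32646595 to 32682669 (ENSMUSG00000026814.16). It had only 15 and 22 counts in control, 8 and 10 with dexamethasone, and 24 and 21 with dexamethasone + EPC-EVs, or 2.44 and 4.38, 1.16 and 1.47, and 1.90 and 1.65 CPM. Control was highest on the CPM scale, and the groups were separated by few counts.

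Mcam encodes the adhesion molecule CD146 and lies on chromosome 9 from 44134469 to 44142727 (ENSMUSG00000032135.15). Its levels were 4.40 and 8.56 CPM in control, 11.4 and 6.33 CPM with dexamethasone, and 14.4 and 9.18 CPM with dexamethasone + EPC-EVs. The dexamethasone libraries overlapped both other groups. Cspg4 encodes the proteoglycan NG2 of the pericyte surface and lies on the same chromosome from 56865033 to 56899870 (ENSMUSG00000032911.6). It had 116 and 72.1 CPM in control, 162 and 131 CPM with dexamethasone, and 234 and 141 CPM with dexamethasone + EPC-EVs. Control was lowest, and the second vesicle library lay between the dexamethasone libraries.

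Cd34, a sialomucin of blood progenitors, endothelium and some stromal cells, lies on chromosome 1 from 194938819 to 194961279 (ENSMUSG00000016494.9). Its values were 411 and 375 CPM in control, 359 and 369 CPM with dexamethasone, and 289 and 239 CPM with dexamethasone + EPC-EVs. The vesicle libraries were the lowest, and the other groups were close. Thy1, the surface glycoprotein CD90 of mesenchymal cells, lies on chromosome 9 from 44043384 to 44048579 (ENSMUSG00000032011.5). It had 132 and 104 CPM in control, 175 and 197 CPM with dexamethasone, and 117 and 92.4 CPM with dexamethasone + EPC-EVs. Dexamethasone alone was the highest group, and control and dexamethasone + EPC-EVs overlapped. Ly6a encodes SCA-1, a surface antigen of stem and stromal cells in the mouse, and lies on chromosome 15 from 74994877 to 74998031 (ENSMUSG00000075602.10). Its values were 76.1 and 68.9 CPM in control, 71.8 and 83.2 CPM with dexamethasone, and 24.4 and 15.1 CPM with dexamethasone + EPC-EVs. The vesicle libraries were well below the other 4, which overlapped.

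Rgs5 speeds the switching off of G proteins and is widely used to mark pericytes. It lies on chromosome 1 from 169655501 to 169695813 (ENSMUSG00000026678.10). It had 172 and 70 counts in control, 204 and 152 with dexamethasone, and 4 and 5 with dexamethasone + EPC-EVs, although the last libraries were the deepest. On the CPM scale these are 28.0 and 13.9, 29.7 and 22.4, and 0.317 and 0.392. The vesicle libraries were nearly empty of Rgs5, and control and dexamethasone overlapped. The mean CPM with dexamethasone + EPC-EVs was 73.4-fold lower than with dexamethasone and 59.1-fold lower than in control. Both folds rest on the 4 and 5 counts. Over the alternatives the log2 fold change ran from -6.39 to -2.68 against dexamethasone and from -7.39 to -2.31 against control, the smallest changes coming from limma on log2(FPKM + 1).

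Aoc3 encodes an amine oxidase of the surface of endothelium, smooth muscle and fat cells that is also called vascular adhesion protein. It lies on chromosome 11 from 101330605 to 101341938 (ENSMUSG00000019326.14). It had 20 and 2 counts in control, 6 and 21 with dexamethasone, and 609 and 407 with dexamethasone + EPC-EVs. In CPM the values were 3.26 and 0.398, 0.873 and 3.09, and 48.2 and 31.9. The vesicle libraries were the only high ones of the 6, and the scarce counts of the other groups overlapped. The mean with dexamethasone + EPC-EVs was 20.2-fold that with dexamethasone and 21.9-fold that in control. The log2 fold change against dexamethasone was 4.29 with all 4 libraries and 5.46 without dexamethasone replicate 2, which held most of the dexamethasone counts. Against control it was 4.33, and 6.60 without control replicate 1. The lowest values were 2.71 against dexamethasone and 2.77 against control, both from limma on log2(FPKM + 1).

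Some of these genes share annotated exon bases with another gene. Eng overlaps Fpgs on the other strand, Mcam overlaps Gm10687, Cd34 overlaps Gm16897, and Pdgfra overlaps Gm42802, Gm42803 and a microRNA gene, while Aoc3 has an antisense neighbour, Gm28156, outside its exons. Whether reads were counted by strand is not stated in the sources used here, so these counts are less certain. Reads may also be split between Ly6a and its relatives, or between Aoc3 and the adjacent Aoc2, because these copies resemble each other.

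Between dexamethasone and control, no marker tested was called. In the quasi-likelihood test of edgeR, adjusted by Benjamini-Hochberg over the 12879 genes tested, 0 of the 8 markers tested reached an adjusted p under 0.05, where 0.0544% of all genes were called. At an unadjusted p under 0.05 there were 2 of 8, Thy1 and Cspg4, against 10.9% of all genes, and 0 were called by DESeq2, which gave an adjusted p for 6 of them, or by limma, which tested 7. The log2 fold change of Thy1 was 0.65 (SE 0.18, edgeR adjusted p = 0.291) and that of Cspg4 0.63 (SE 0.23, edgeR adjusted p = 0.386), each higher in 2 of 2 libraries. The other 6 lay between -1.36 for Eng (SE 1.05) and 0.45 for Mcam (SE 0.57). Of them, Cd34 and Eng were each lower in 2 of 2 libraries. Over the 8 the median log2 fold change was 0.14, against 0.007 over all genes. For Rgs5 it was 0.30 (SE 0.37) and for Aoc3 0.09 (SE 1.296), as descriptions. Past the threshold of the study (unadjusted p under 0.05, with at least 1.5 on the log2 scale either way), there were 0 of the 8 and 1.41% of all genes.

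These counts depended on the libraries and the method. Without control replicate 1, Thy1 (log2 fold change 0.84, edgeR adjusted p = 0.00016), Cspg4 (1.03, edgeR adjusted p = 4.83e-05) and Pdgfrb (0.74, edgeR adjusted p = 0.000463) were called, with 2200 genes called in all where 7 were called with it. With no filter on low counts, Thy1 was called with a log2 fold change of 0.65 (edgeR adjusted p = 0.0461). Without control replicate 2 the log2 fold change was 0.50 for Thy1 and 0.35 for Cspg4. With the GC and length trend removed it was 0.28 for Thy1 (edgeR adjusted p = 0.627) and 0.33 for Cspg4 (edgeR adjusted p = 0.669). The log2 fold change of Rgs5 was 0.90 without control replicate 1 and -0.10 without control replicate 2, and that of Aoc3 was 2.26 and -0.70 in the same fits. Without dexamethasone replicate 2 that of Aoc3 was -1.06, and without dexamethasone replicate 1 it was 0.73.

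**Figure D2:**
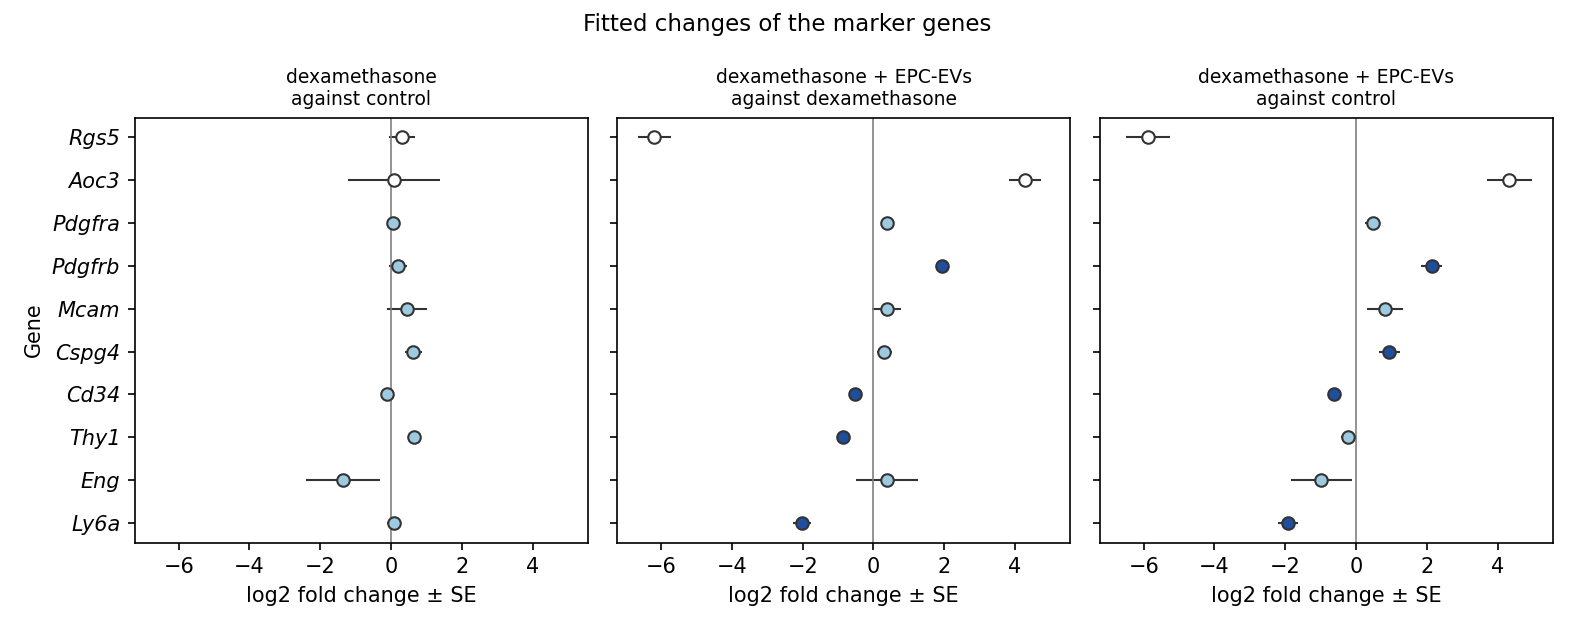
log2 fold change of each marker gene with its standard error in the 3 comparisons, which share libraries; dark points were called by edgeR at an adjusted p under 0.05, light points were not, and white points (Rgs5 and Aoc3) were not tested. Pdgfrb, at 1.94, and Ly6a, at -2.02, are the tested genes farthest from 0 in dexamethasone + EPC-EVs against dexamethasone.

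When the vesicles were added to dexamethasone, Pdgfrb rose and Ly6a, Thy1 and Cd34 fell. Of the 8 markers tested, 4 passed the quasi-likelihood test of edgeR over 13556 genes, where 39.8% of all genes were called, so the share of markers called lies near that of all genes. In the direction of a rise 1 of 8 was called against 20.9% of all genes, and in that of a fall 3 of 8 against 18.9%. Pdgfrb had a log2 fold change of 1.94 (SE 0.14, edgeR adjusted p = 2.05e-06), and was 3.97-fold higher by mean CPM. Ly6a fell by 2.02 on the log2 scale (SE 0.24, edgeR adjusted p = 7.47e-05), a mean CPM 3.93-fold lower. The log2 fold change of Thy1 was -0.87 (SE 0.16, edgeR adjusted p = 0.00104) and that of Cd34 was -0.51 (SE 0.13, edgeR adjusted p = 0.00962). Each of these held in 2 of 2 libraries, as did the uncalled differences of Pdgfra and Eng. Separation of this kind thus adds no weight to the calls, and its share over all genes is not given here. Pdgfra, higher in both vesicle libraries, narrowly missed the call at 0.40 (SE 0.15, edgeR adjusted p = 0.053), and Mcam, Cspg4 and Eng had values of 0.37, 0.31 and 0.38 (SE 0.41, 0.21 and 0.88), with no call. Over the alternatives the value of Mcam ran from 0.007 to 0.868. The median over the 8 markers was 0.34, against 0.01 over all genes. For Rgs5 the log2 fold change was -6.19 (SE 0.47), as a description of the contrast on which it was selected. Past the threshold of the study there were 2 of the 8, Pdgfrb and Ly6a, where 14.2% of all genes passed.

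The call of Cd34 was lost without dexamethasone replicate 1 (log2 fold change -0.51, edgeR adjusted p = 0.0859), without dexamethasone replicate 2 (-0.49, edgeR adjusted p = 0.106), and with the GC and length trend removed (-0.06, edgeR adjusted p = 0.759). Pdgfra was called by DESeq2 (adjusted p = 0.0492), with no filter (edgeR adjusted p = 0.00616), with the GC and length trend removed (edgeR adjusted p = 0.0254) and when dexamethasone + EPC-EVs replicate 1 was left out (0.61, edgeR adjusted p = 0.000217). Cspg4 was called without dexamethasone + EPC-EVs replicate 2 (0.65, edgeR adjusted p = 0.000467) and turned to -0.09 without dexamethasone + EPC-EVs replicate 1 (edgeR adjusted p = 0.702).

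Against control, the cells with dexamethasone and vesicles together had more Pdgfrb and less Ly6a, and in the fit reported here also more Cspg4 and less Cd34. Over 13511 genes tested, edgeR called 4 of the 8 markers, against 36.4% of all genes. Upward calls were 2 of 8 against 19.1% of all genes, and downward calls 2 of 8 against 17.2%. Pdgfrb had a log2 fold change of 2.14 (SE 0.29, edgeR adjusted p = 0.00119) and Cspg4 one of 0.94 (SE 0.30, edgeR adjusted p = 0.039). Ly6a fell by 1.92 (SE 0.29, edgeR adjusted p = 0.00179) and Cd34 fell by 0.62 (SE 0.18, edgeR adjusted p = 0.0278), all 4 in 2 of 2 libraries. The uncalled differences of Pdgfra, Mcam and Eng also held in 2 of 2 libraries, so this separation does not set the called genes apart. The values that did not pass were 0.47 for Pdgfra (SE 0.20, edgeR adjusted p = 0.104), 0.82 for Mcam (SE 0.51), -0.21 for Thy1 (SE 0.22) and -0.98 for Eng (SE 0.86). Over the alternatives the value of Mcam ran here from 0.10 to 1.39. The median over the 8 was 0.13, against 0.02 over all genes, and past the threshold of the study there were 2 of 8, Pdgfrb and Ly6a, against 20.7% of all genes. The log2 fold change of Rgs5, described only, was -5.88 (SE 0.63).

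Pdgfrb and Ly6a kept their calls here with each library left out in turn. With the GC and length trend removed the log2 fold change of Pdgfrb was 1.40 against control (edgeR adjusted p = 0.00137) and 1.47 against dexamethasone (edgeR adjusted p = 1.24e-05), still called but short of the 1.5 in the threshold of the study. Cd34 lost its call without control replicate 1 (edgeR adjusted p = 0.0589), without dexamethasone + EPC-EVs replicate 1 (edgeR adjusted p = 0.0625) and without replicate 2 of that group (edgeR adjusted p = 0.286), and Cspg4 without control replicate 2 (edgeR adjusted p = 0.145) or replicate 1 of dexamethasone + EPC-EVs (edgeR adjusted p = 0.241), which left 2 markers called without the latter library. Both also lost it with limma on FPKM and with the GC and length trend removed, where the log2 fold change of Cd34 was only -0.03 (edgeR adjusted p = 0.926) and that of Cspg4 0.32 (edgeR adjusted p = 0.388). With that trend removed, Pdgfra (0.59, edgeR adjusted p = 0.0421) and Thy1 (-1.14, edgeR adjusted p = 0.00244) were called.

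Genes related to the markers were counted in lists written from general knowledge, with earlier results of these data known. The counts of called genes stand beside rates over all genes of 20.9% higher and 18.9% lower against dexamethasone, and of 19.1% higher and 17.2% lower against control. Of the list genes named in the text, Pdgfa, Pdgfc, Smad5, Bmpr1a, Rgs20, Des, Tagln, Mylk, Twist2, Has2, Prom1, Csf1r, Spp1 and Cebpa share exon bases with another gene, so their counts are less certain. In dexamethasone against control, edgeR called 0 genes in each of these lists. Of the 5 ligands and relatives of the platelet-derived growth factor system, dexamethasone + EPC-EVs had 2 called higher and 1 lower than dexamethasone, the median log2 fold change being 1.08 against 0.01 over all genes. Pdgfrl, a receptor-like gene, rose by 1.90 (SE 0.35, edgeR adjusted p = 0.00137), the ligand gene Pdgfc rose by 1.09 (SE 0.19, edgeR adjusted p = 0.000829), and the ligand gene Pdgfa fell by 0.80 (SE 0.20, edgeR adjusted p = 0.00739). Against control the counts were again 2 higher and 1 lower (median 1.02). With the GC and length trend removed the medians were 0.63 and 0.70, with the same calls kept.

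Of 10 receptors, co-receptors and SMAD genes around endoglin that passed the filter, 1 rose and 5 fell with the vesicles (median -0.53), where 20.9% of all genes rose and 18.9% fell. Against control 1 rose and 6 fell (median -0.75), where 19.1% and 17.2% of all genes did. With the GC and length trend removed the medians were -0.17 and -0.31. Bmpr2 and Smad5 then lost their calls in both comparisons, and against control Tgfbr2 and Bmpr1a lost theirs too, Bmpr1a with a change of sign. Tgfbr2, the type II receptor of transforming growth factor β, rose by 0.66 (SE 0.14, edgeR adjusted p = 0.00368), whereas its partner Tgfbr1 fell by 1.60 (SE 0.21, edgeR adjusted p = 0.000116). Bmpr2, a receptor for bone morphogenetic proteins, fell by 0.73 (SE 0.13, edgeR adjusted p = 0.00101).

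Of the other genes of the Rgs5 family, 2 of 10 rose and 3 fell with the vesicles, against 20.9% and 18.9% of all genes (median 0.10, and -0.11 with the GC and length trend removed), and against control 3 of 11 rose and 2 fell, against 19.1% and 17.2% of all genes (median 0.09, and -0.16 with that trend removed). With it removed, Rgs20 lost its call against dexamethasone and Rgs3 its call against control. Rgs2 rose by 2.59 (SE 0.31, edgeR adjusted p = 7.01e-05) and the other called rise was Rgs7, named after its counts were seen, with 17 and 37 counts where the dexamethasone libraries had 0, at least 4.84-fold higher than 3 counts in each of them. Rgs7 had 0 counts in control too and passed the filter on its vesicle libraries alone, so its call adds little to its counts. Rgs17 fell by 2.91 (SE 0.13, edgeR adjusted p = 1.09e-07) and Rgs4, itself used as a pericyte marker, fell by 1.90 (SE 0.15, edgeR adjusted p = 5.79e-06).

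Among the amine oxidases, 3 besides Aoc3 passed the filter and 1 of them, Smox, fell with the vesicles, by 0.71 (SE 0.26, edgeR adjusted p = 0.044). The median was -0.13, and 0.52 with the GC and length trend removed, and against control 0 of 3 were called by edgeR. Aoc2, named after its counts were seen, had 26 and 12 counts with dexamethasone and 69 and 91 with dexamethasone + EPC-EVs (log2 fold change 1.13, SE 0.57, edgeR adjusted p = 0.14). Of the Ly6 genes besides Ly6a, 2 passed the filter and both fell with the vesicles (median -1.48), Ly6c1 by 2.00 (SE 0.21, edgeR adjusted p = 3.1e-05) and Ly6e by 0.96 (SE 0.13, edgeR adjusted p = 0.00021). Against control 1 of these 2, Ly6c1, was called lower. Of all genes 18.9% fell against dexamethasone and 17.2% against control.

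**Figure D3:**
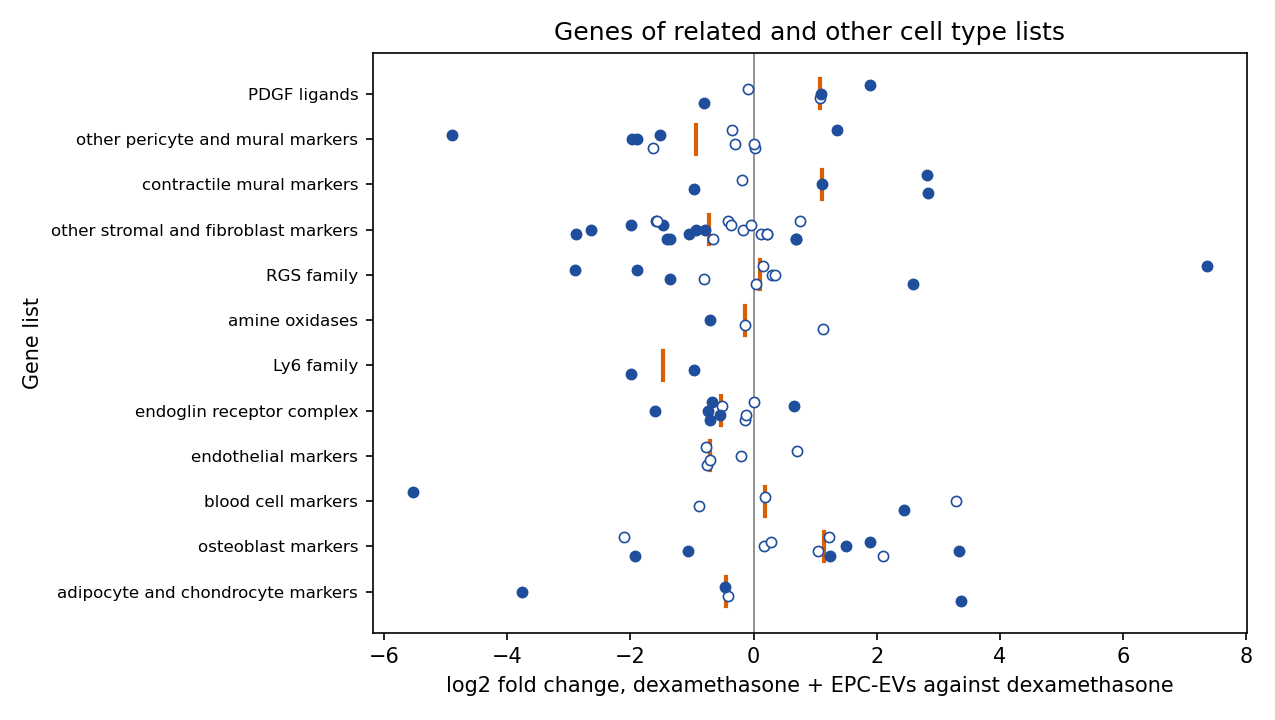
log2 fold change in dexamethasone + EPC-EVs against dexamethasone of each gene that passed the filter, by list; filled points were called by edgeR at an adjusted p under 0.05 and orange bars are list medians. Rgs7, at 7.37 in the RGS family, had 0 counts in both dexamethasone libraries, so its fitted value depends on the prior count.

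Further markers of pericytes and mural cells were taken from a list of 21 genes, of which 14 were in the table used here and 10 passed the filter. With the vesicles 1 rose and 4 fell (median -0.94), and against control 1 rose and 2 fell (median -0.98). Of all genes 20.9% rose and 18.9% fell against dexamethasone, and 19.1% and 17.2% against control. Rgs4 is counted among the falls both of this list and of the Rgs5 family. Foxc1, a transcription factor of mesenchyme and mural cells, rose by 1.36 (SE 0.19, edgeR adjusted p = 0.000206). Steap4, a metalloreductase, fell by 4.90 (SE 0.39, edgeR adjusted p = 4.78e-06), from 354 and 399 counts to 12 and 36. The vesicle libraries of Steap4 would not have passed the filter on their own. It passed through the dexamethasone or the control libraries, where it is high, so its calls add little to its counts. The intermediate filament gene Des fell by 1.97 (SE 0.58, edgeR adjusted p = 0.018). Of 5 contractile genes that passed the filter, 3 rose and 1 fell in each vesicle comparison, with medians of 1.11 against dexamethasone and 0.91 against control, and of 0.89 and 0.52 with the GC and length trend removed, where Mylk lost its call against control. Acta2, which encodes smooth muscle actin, had 336 and 329.8 CPM with dexamethasone and 2446 and 2435 CPM with dexamethasone + EPC-EVs, a rise of 2.83 (SE 0.11, edgeR adjusted p = 7.06e-08). Tagln rose by 2.81 (SE 0.21, edgeR adjusted p = 3.48e-06), while Lmod1 fell by 0.97 (SE 0.21, edgeR adjusted p = 0.00331).

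Of 22 other stromal and fibroblast markers that passed the filter, 2 rose and 9 fell in each vesicle comparison, with medians of -0.72 against dexamethasone and -0.79 against control. Of all genes 20.9% rose and 18.9% fell against dexamethasone, and 19.1% and 17.2% against control. The proteoglycan genes Dcn and Lum fell by 2.89 (SE 0.31, edgeR adjusted p = 0.000407) and by 1.99 (SE 0.44, edgeR adjusted p = 0.0175). The adhesion gene Alcam rose by 0.70 (SE 0.22, edgeR adjusted p = 0.0272) and the integrin gene Itga11 by 0.69 (SE 0.22, edgeR adjusted p = 0.0272). With the GC and length trend removed, Lepr, Lum and Itga11 lost their calls against dexamethasone. Against control Grem1, Has2 and both rises, Itga11 and Twist2, lost theirs, and Itga11 and Has2 changed sign. Twist2 had 5 and 1 counts in control and 60 and 50 in the vesicle libraries. It passed the filter against control on the vesicle libraries alone. Lepr had 33 and 17 counts with dexamethasone and 6 and 9 in the vesicle libraries. It passed the filter against dexamethasone on the dexamethasone libraries alone. The calls of Twist2 and Lepr in these comparisons add little to their counts.

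Markers of other cells were mostly scarce. Calls among them stand beside 20.9% of all genes higher and 18.9% lower against dexamethasone, and 19.1% and 17.2% against control. Of 16 endothelial markers, 10 were in the table used here, and edgeR called 0 of the 5 that passed the filter with the vesicles and 0 of 3 against control, with medians of -0.70 and -0.13, and of -0.90 and -1.08 with the GC and length trend removed. Their summed level was 126 and 105 CPM in control, 122 and 119.8 CPM with dexamethasone, and 121 and 94.0 CPM with dexamethasone + EPC-EVs, most of it from Flt1, with Cdh5 and Prom1 at 3 counts or fewer in every library. Of 16 blood cell markers, 7 were in the table and 5 passed the filter, with 1 called higher and 1 lower with the vesicles (median 0.18) and 2 higher and 1 lower against control (median 0.95). Their sum was 46.1 and 31.6 CPM in control, 21.7 and 29.4 CPM with dexamethasone, and 43.2 and 87.6 CPM with dexamethasone + EPC-EVs, and Adgre1 had 3 counts or fewer in every library. Cd14 rose by 2.44 (SE 0.39, edgeR adjusted p = 0.000537), and Csf1r had 56 and 471 counts in the vesicle libraries and at most 20 in another library. Csf1r was called higher against control only, where it had 12 and 0 counts. It passed the filter there through its vesicle libraries, which differ widely, so its call adds little to its counts. Ppbp, a platelet gene, was called lower in both vesicle comparisons, with 146 and 63 counts in control, 10 and 22 with dexamethasone, and 0 and 1 with dexamethasone + EPC-EVs. It passed the filter on the control or the dexamethasone libraries alone, so its calls add little to its counts. The part of such cells in the marker values was not tested.

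The osteoblast list had 4 of 12 genes called higher and 2 lower with the vesicles (median 1.14), against 20.9% and 18.9% of all genes. Against control 4 of 14 were higher and 2 lower (median 0.18), against 19.1% and 17.2% of all genes. With the GC and length trend removed the medians were 0.60 and -0.18, and against control Col1a1 and Spp1 lost their calls. Postn, which encodes periostin, rose by 3.33 (SE 0.14, edgeR adjusted p = 7.06e-08) and Col1a2 by 1.89 (SE 0.12, edgeR adjusted p = 1.42e-06), while Phex fell by 1.92 (SE 0.40, edgeR adjusted p = 0.00297) and Spp1 fell by 1.06 (SE 0.14, edgeR adjusted p = 0.000155). Of 4 adipocyte and chondrocyte markers that passed the filter, 1 rose and 2 fell with the vesicles (median -0.44) and 1 fell against control (median -0.34). With the GC and length trend removed the medians were -0.87 and -1.06, and the only rise against dexamethasone, Cebpa, and the only call against control, Fabp4, were lost. Cebpa had 5 and 0 counts with dexamethasone and 59 and 43 with dexamethasone + EPC-EVs, and passed the filter on the latter libraries alone. Fabp4, called lower in both vesicle comparisons, had 44 and 14 counts in control and 65 and 15 with dexamethasone. In the vesicle libraries it had 9 and 2 counts. It passed the filter on the control or the dexamethasone libraries alone, so its calls add little to its counts. Sox9, a chondrocyte regulator, fell by 0.47 (SE 0.15, edgeR adjusted p = 0.0274).

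For each marker, the 3 genes of most similar pattern were found among 10638 genes by the root mean square difference of centred log2 CPM over the 6 libraries. For Rgs5 they were Klra2, Gm14305 and D6Ertd527e, at 0.39 to 0.58, where Rgs5 itself ranged over 5.75. For Aoc3 they were Klf2, Oaz1-ps and Megf6, at 0.58 to 0.79, and the pseudogene Oaz1-ps may share reads with its parent. The nearest to Pdgfrb were Nnmt, Tsc22d4 and Slc27a4 (0.05 to 0.10), and to Pdgfra Aldh1l2, Nfe2l1 and Msl1 (0.04 each). Ly6a was closest to Hmgb3, Bex3 and Ptpn2 (0.12 to 0.13), Thy1 to Fkbp11, Fbxl2 and Ube2e2 (0.07 to 0.10), and Cd34 to Nhs, Ankrd16 and Srbd1 (0.03 to 0.05). Cspg4 came nearest to Aldh2, Gstp1 and Prrx2 (0.06 to 0.09), Mcam to Ankrd34a, Pus10 and Ror2 (0.14 to 0.16), and Eng to Mum1l1, Ankrd1 and Ogn (0.18 to 0.19). None of these neighbours was another of the 10 markers.

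Promoter sequences from RefSeq (GRCm38.p6) matched 6 of the 10 genes, Rgs5, Pdgfra, Mcam, Cspg4, Cd34 and Eng, and the 250 bases before each RefSeq start were searched on both strands. The RefSeq and GENCODE starts differ for Pdgfra, Mcam, Cspg4 and Cd34, and the windows of Mcam, Cspg4 and Cd34 reach past the GENCODE start. The motifs, picked after the data were examined, were a glucocorticoid receptor half-site, an AP-1 site, a TATA box, an Sp1 box and a CCAAT box, held by 16.1%, 6.75%, 12.4%, 32.7% and 33.8% of 32851 promoters of that length. The first 3 motifs matched in 0 of the 6. The Sp1 box matched 5 times in Mcam and 2 times in Cspg4, and the CCAAT box 1 time in Rgs5, from position -67. Of these windows that of Mcam was 73.6% G and C, against a median of 52.4% over all promoters, and that of Cd34 46.4%. Rgs5 and Cd34 are shown, because both had their lowest levels with dexamethasone + EPC-EVs. Both are on the plus strand of chromosome 1, Rgs5 at chr1:169655251-169655500 and Cd34 at chr1:194938571-194938820, written 5′ to 3′ with capitals for the CCAAT box, read on the minus strand.
Rgs5: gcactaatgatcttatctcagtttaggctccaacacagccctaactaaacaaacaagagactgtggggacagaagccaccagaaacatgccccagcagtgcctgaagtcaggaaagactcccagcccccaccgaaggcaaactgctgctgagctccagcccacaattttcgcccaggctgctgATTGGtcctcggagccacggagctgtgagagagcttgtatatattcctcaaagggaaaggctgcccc
Cd34: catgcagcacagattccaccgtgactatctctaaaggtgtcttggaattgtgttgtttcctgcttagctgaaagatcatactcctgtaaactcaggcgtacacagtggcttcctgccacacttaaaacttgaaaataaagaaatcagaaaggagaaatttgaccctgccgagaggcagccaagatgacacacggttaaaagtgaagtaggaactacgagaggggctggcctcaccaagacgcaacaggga
A match is a stretch of letters and no evidence of binding, and no binding was measured here.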

How the data were processed

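RNA-seq of 6 libraries was analysed, 2 in each of 3 groups, grouped by the sample labels. After read cleaning the authors aligned with HISAT2 in its RF strand mode and deposited raw counts per gene made with HTSeq 0.6.1, without normalization. The authors also deposited FPKM per gene, which equal the counts over a gene length and the library total. Of 21686 genes, 21646 were found in GENCODE vM21 (GRCm38), the source of coordinates.

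Counts were fitted with edgeR 4.0.16 (R 4.3.3) on the 4 libraries of a comparison, with TMM factors, the filterByExpr filter, robust dispersions and a two-sided quasi-likelihood test. Calls were made at 0.05 after Benjamini-Hochberg adjustment over all genes tested. The fits were also run on simulated data, and no outcome of that is used in the text. Alternatives used DESeq2 1.42.0, limma 3.58.1, other scalings and filters, 1 fit of all 6 libraries, a replicate block, a loess trend on GC content and length, and each library left out. Levels between genes were compared on FPKM.

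The markers and lists were chosen with earlier results of these data known. Beside the markers, the text names from each list up to 4 genes of highest mean CPM and up to 2 called rises and 2 called falls of a comparison, 5 CPM or more being required on average in its 4 libraries, and other names were chosen after their values were seen. The 3 genes most like each marker had a mean of at least 5 CPM over the 6 libraries. All 10 markers passed the filter in each comparison. A count of 0 allows up to 3 counts, for counting error only.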

Additional observations from a re-analysis of the deposited data

How the results depend on the processing

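Over the 8 markers tested and the 3 comparisons, 337 of 374 log2 fold changes under alternatives kept their direction and their side of the threshold, 14 lost the call, 14 gained it and 9 changed sign. The 9 were all uncalled in the fits reported: in dexamethasone against control, Pdgfra (-0.0212) and Pdgfrb (-0.182) without control replicate 2, Pdgfrb (-0.0589) and Cd34 (0.0373) with the GC and length trend removed, Mcam (-0.0368) without dexamethasone replicate 1 and Ly6a (-0.0146) without dexamethasone replicate 2; in dexamethasone + EPC-EVs against dexamethasone, Cspg4 (-0.0930) without dexamethasone + EPC-EVs replicate 1 and Eng (-0.239) with the trend removed; and against control, Thy1 (0.00858) without control replicate 1. With each library left out, these spanned -0.0212 to 0.190 for Pdgfra, -0.182 to 0.736 for Pdgfrb, -0.0368 to 1.01 for Mcam and -0.0146 to 0.192 for Ly6a in dexamethasone against control, -0.0930 to 0.646 for Cspg4 in dexamethasone + EPC-EVs against dexamethasone, and -0.386 to 0.00858 for Thy1 against control. For dexamethasone against control, where edgeR called 7 genes and 0 of the 8 markers, 129 genes were called by DESeq2, 248 genes and 1 marker (Thy1) with no filter, 1 gene without the mitochondrially encoded genes, 18 with the trend removed, and 0 by limma on log2(FPKM + 1) and on log2(FPKM + 0.1), beside 1409 at an unadjusted edgeR p under 0.05. Leaving out each library gave 9 to 2200 genes and 0 to 3 markers in that comparison, 3250 to 4813 genes and 3 to 5 markers in dexamethasone + EPC-EVs against dexamethasone, and 3375 to 6231 genes and 2 to 3 markers against control. Against control, limma called 2 of the 7 markers it tested with either pseudocount. The threshold of the study passed 2 markers in each of the vesicle comparisons, in place of 4. On CPM in place of FPKM, 4, 4 and 6 of the 10 markers kept their rank in control, dexamethasone and dexamethasone + EPC-EVs, and Pearson correlation shared 7 of the 30 genes named as most similar. The cause of these differences was not tested.

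With the replicate block, 43 genes and 0 markers were called in dexamethasone against control, 5366 genes and 5 markers (Pdgfra added) against dexamethasone, and 4679 genes and 4 markers in dexamethasone + EPC-EVs against control. Differences between replicates 1 and 2 correlated across 10638 genes at 0.13 for control with dexamethasone, 0.009 for dexamethasone with dexamethasone + EPC-EVs and 0.04 for control with dexamethasone + EPC-EVs, and no label ties a number to a shared batch, so the replicates were treated as sharing only a number. Where 1 library is left in a group, its spread was taken from the other group. Depth limits Rgs5 in the vesicle libraries, with 4 and 5 counts, Eng, with at most 24 counts in a library, and Aoc3 outside the vesicle libraries, with at most 21.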
